A study of Mus musculus with 2 samples.

Results

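Crypt stem cell genes were examined in RNA from small-intestinal TR1 cells (type 1 regulatory T cells, CD4 T cells that make IL-10), to ask whether the other genes of the crypt base followed Olfm4, whose difference between the samples was among the largest on the array. The members were 10 known markers of the crypt base, chosen by name after the measured Olfm4 difference had drawn attention to it: Olfm4, Smoc2, Lgr5, Rnf43, Axin2, Ascl2, Sox9, Lrig1, Ephb2 and Ephb3. A probe set (the group of probes that reads a transcript) counted when the platform annotation gave it exactly 1 gene symbol, and 9 of the 10 members had such a probe set, out of 19937 genes in all. The expression of Ephb2 was not analysed here, and the gene enters only through its promoter sequence. Each of the 9 had a single probe set, so each gene rests on 1 value per array.

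The impaired sample came from CD4-DNIL-10R transgenic mice, whose T cells carry a dominant-negative IL-10 receptor driven by Cd4 regulatory sequences. The wildtype sample came from mice with an intact receptor. All mice had received 15 μg of anti-CD3 antibody, an activator of T cells, by 2 intraperitoneal injections, and were killed 4 or 48 hours after the last. The labels do not tie a time to a sample, and give no strain, age, number of mice or sort. Each group was 1 Affymetrix array, so there was no replicate error, no difference was tested, and every value below describes these 2 arrays. Values are log2 expression after RMA, which corrects background and equalizes the distribution of probe signals between arrays before probe set values are made. Each difference is impaired minus wildtype.

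The crypt is the pocket at the foot of each intestinal villus, and stem cells at its base renew the epithelium. Wnt ligands keep these cells dividing: R-spondins bind LGR receptors and protect the Wnt receptor from removal, and β-catenin with TCF factors then switches on target genes. Notch signals from neighbouring cells hold stem cells in an undifferentiated state. Olfm4 is a stem cell marker of the small intestine that responds to Notch, whereas Lgr5, Ascl2, Axin2, Rnf43, Sox9 and the EphB receptors are known Wnt targets. OLFM4 protein is also stored in the granules of a subset of neutrophils. None of the members is a defining gene of TR1 cells.

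Promoter sequences, taken from RefSeq on build GRCm38.p6, are shown for Olfm4, the member with the highest difference, and for Axin2, the member with the lowest. Each run holds the 250 bases before the annotated start, 5′ to 3′, at chr14:80000052-80000301 (plus strand) for Olfm4 and chr11:108920099-108920348 (plus strand) for Axin2. Capitals mark the RBPJ core TGGGAA, the letters read by the Notch effector RBPJ.
Olfm4: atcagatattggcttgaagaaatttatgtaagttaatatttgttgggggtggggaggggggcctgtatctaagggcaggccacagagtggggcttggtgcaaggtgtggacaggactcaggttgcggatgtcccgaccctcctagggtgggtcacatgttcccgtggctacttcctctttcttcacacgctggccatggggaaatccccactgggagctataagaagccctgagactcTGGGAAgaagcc
Axin2: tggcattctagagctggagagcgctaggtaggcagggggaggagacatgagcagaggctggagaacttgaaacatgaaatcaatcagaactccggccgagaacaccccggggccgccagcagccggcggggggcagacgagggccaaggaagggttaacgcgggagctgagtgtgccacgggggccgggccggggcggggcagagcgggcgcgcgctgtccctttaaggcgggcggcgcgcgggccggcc
The Olfm4 match begins 12 bases before the start. Windows of 300 bases (250 before and 50 after the start) were searched on both strands for TGGGAA and for the TCF core CTTTGA, which do not overlap in these windows. The table held windows for 7 of the 10 members (8 windows, since Rnf43 has 2 starts), and Lgr5, Sox9 and Smoc2 were not matched. TGGGAA was found in 1 of the 8 member windows, that of Olfm4, and in 25.6% of all 32851 promoter windows. CTTTGA was found in 0 of the 8 and in 16% of all windows. The Olfm4 window also held 5 CG dinucleotides, against 23 to 35 in those of Ascl2, Axin2, Ephb2, Ephb3 and Lrig1, 3 and 10 in those of Rnf43, and a median of 7 over all windows. A match of letters is a description, and these windows leave out distant enhancers.

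Olfm4 was brighter in the impaired sample by about 4-fold, and no other member came near that size. Of the 9 members 8 were above 0 and 1 was below, and the median difference was 0.38 (1.30-fold). Without Olfm4, 7 of 8 were above 0 and the median was 0.30 (1.23-fold). Over all 19937 genes 51.5% were above 0 and the median difference was 0.01. At least 2-fold brighter were 1 of the 9 members, Olfm4 itself, and 0.828% of all genes. Since Olfm4 was chosen for its difference, nothing is read from that count, and among the other 8 members 0 reached 2-fold. At 1.5-fold, 1 of those 8, Smoc2, was brighter, against 3.58% of all genes, and 0 of the 9 members were dimmer, against 1.8%.

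**Figure D1:**
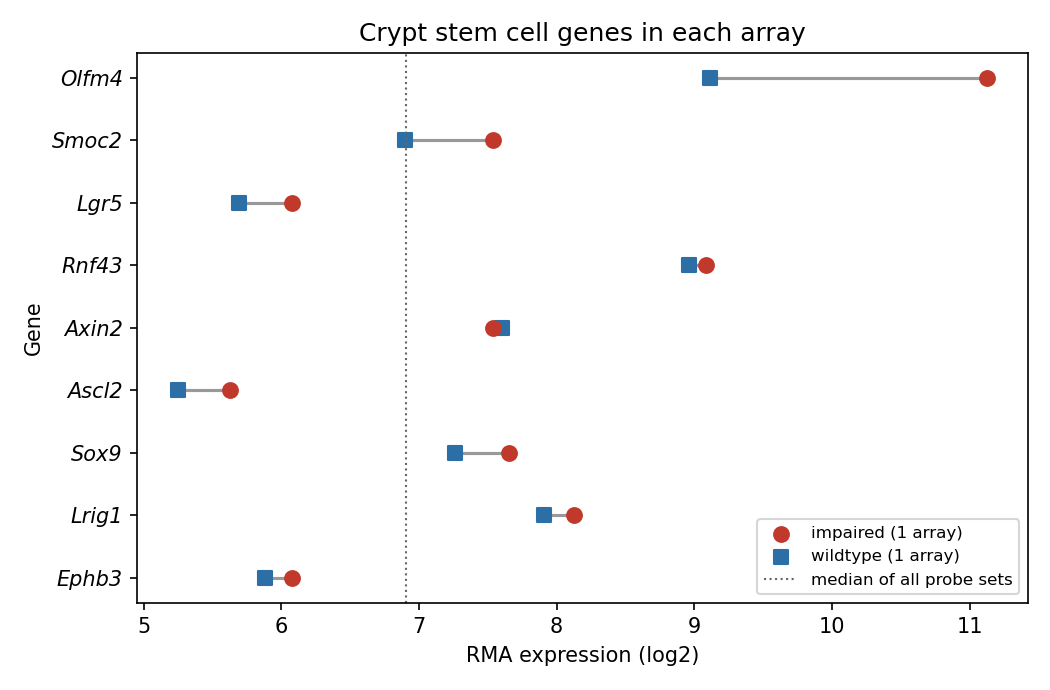
RMA expression (log2, horizontal axis) of the 9 measured crypt stem cell genes in the impaired array (circles) and the wildtype array (squares), with lines joining the values of a gene and a dotted line at 6.91, the median over probe sets. Olfm4 has the widest gap (11.13 impaired, 9.12 wildtype), and Axin2 alone lies lower in the impaired array.

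Among the secreted products, Olfm4, an olfactomedin glycoprotein, had a value of 11.13 in the impaired sample and 9.12 in the wildtype sample. The difference was 2.01, a 4.03-fold higher signal, and 8 of the 19937 genes had a higher one. This is the value for which the gene was chosen. Smoc2, a matricellular calcium-binding protein made at the crypt base and also by stromal cells, was at 7.54 in the impaired sample and 6.90 in the wildtype sample. Its difference of 0.64 (1.56-fold) was the next highest among the members and lay 1.37 below that of Olfm4. Smoc2 stood at rank 591 of all genes.

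Among the Wnt receptor genes and their feedback inhibitors, the differences were small. Lgr5, the R-spondin receptor that defines the crypt base columnar stem cell, was at 6.08 in the impaired sample and 5.70 in the wildtype sample (difference 0.38, 1.30-fold). Both Lgr5 values lay below 6.91, the middle of all probe sets ranked by mean signal, which serves here as a floor for dim signal. Of all genes 7.74% had a difference at least as high as that of Lgr5. Rnf43, a ubiquitin ligase that removes Frizzled receptors from the cell surface, was at 9.09 in the impaired sample and 8.96 in the wildtype sample (difference 0.13). Axin2, a scaffold of the β-catenin destruction complex and a standard readout of Wnt activity, was at 7.54 in the impaired sample and 7.61 in the wildtype sample. Its difference of -0.07 was the only one below 0 among the members. Rnf43 and Axin2 stood above the floor in both arrays.

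The transcription factors were alike in their differences. Ascl2, a basic helix-loop-helix factor that maintains the stem cell state, was at 5.63 in the impaired sample and 5.25 in the wildtype sample (difference 0.38), with both values below the floor. Sox9, which is expressed at the crypt base and is needed for Paneth cells, was at 7.66 in the impaired sample and 7.26 in the wildtype sample (difference 0.39, 1.31-fold). Both differences were close to that of Lgr5, and neither reached 1.5-fold.

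Among the membrane receptors, Lrig1, a transmembrane inhibitor of EGF receptor family signalling, was at 8.13 in the impaired sample and 7.91 in the wildtype sample (difference 0.22). Ephb3, a receptor for B ephrins that helps keep Paneth cells at the crypt base, was at 6.08 in the impaired sample and 5.88 in the wildtype sample (difference 0.20), both below the floor. Neither gene reached 1.5-fold.

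Signal strength divides the members. With the mean of both arrays, 6 members (Olfm4, Rnf43, Lrig1, Axin2, Sox9 and Smoc2) stood at or above the floor and 3 (Lgr5, Ephb3 and Ascl2) below it. RMA compresses the differences of dim probe sets, so those of the 3 low members may be understated, and no detection call was at hand to say whether they were measured above background. The median difference was 0.31 over the 6 and 0.38 over the 3. Among all genes 49.4% at or above the floor and 54% below it were above 0, and 1.41% and 0.142% of them reached 2-fold.

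**Figure D2:**
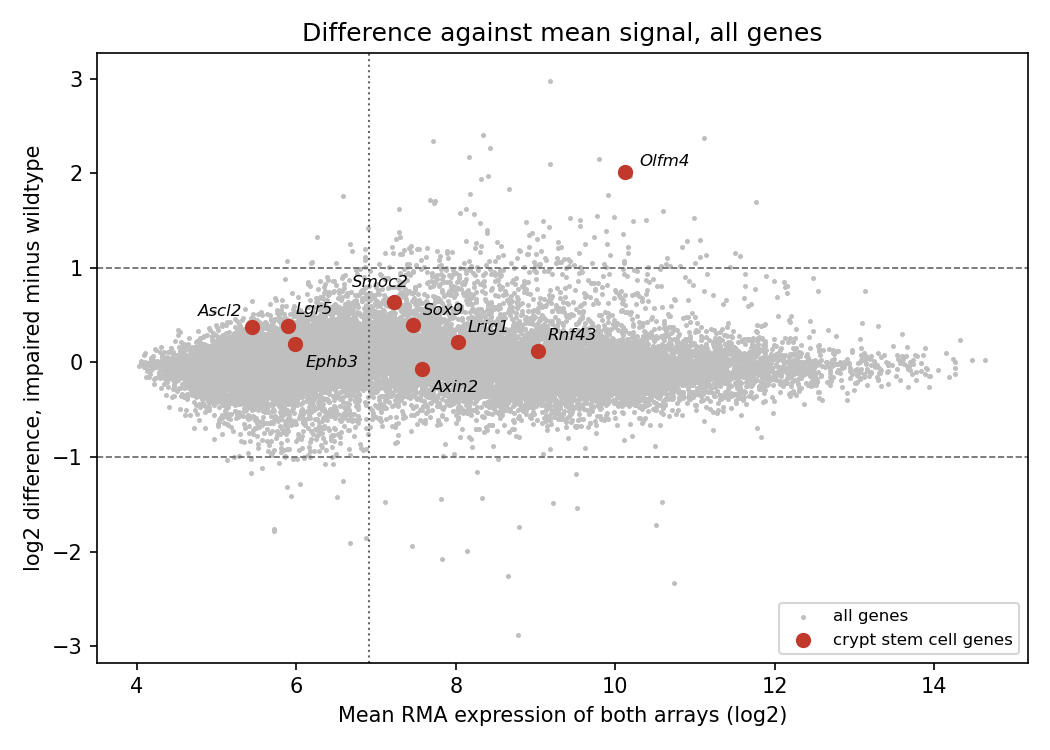
Difference (log2, impaired minus wildtype) against the mean of both arrays (log2) for all 19937 genes in grey, with the 9 crypt stem cell genes in red, dashed lines at 2-fold and a dotted line at the floor of 6.91. Olfm4 stands at 2.01 above the main cloud, and the other 8 members lie within it, between -0.07 and 0.64.

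Other genes of the Lgr5 stem cell signature were mixed, and Gkn3 came close to Olfm4. Of 10 measured genes 9 were above 0, the median was 0.27, and 2 reached 2-fold. Gkn3, a gastrokine that is found in both the stem cell signature and mucous cells of the stomach, was at 9.29 in the impaired sample and 7.35 in the wildtype sample (difference 1.94). Kcne3, a potassium channel subunit of crypt epithelium, was at 9.04 in the impaired sample and 7.56 in the wildtype sample (difference 1.48). Slc12a2, the basolateral chloride importer of crypt cells, differed by 0.78, and Prom1, a membrane protein of crypt progenitors, by 0.60. The remaining 6 lay between -0.11 and 0.33.

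By the distance between pairs of log2 values over the 2 arrays, the genes most like Olfm4 were Tff2, Sis and Reep6. Tff2, a trefoil peptide of stomach and Brunner gland mucus, was nearest, at 11.18 in the impaired sample and 9.20 in the wildtype sample (difference 1.97). Sis, the brush border enzyme sucrase-isomaltase, differed by 1.77. Reep6, a protein of the endoplasmic reticulum, differed by 1.54. With 2 arrays this measure says only that both values were similar.

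Other Wnt target genes had differences of the size seen in the members without Olfm4. Of 9 measured genes 8 were above 0, the median was 0.20, and 0 reached 2-fold. The feedback inhibitors Znrf3, Nkd1 and Notum (named after their values were seen) differed by 0.16, 0.06 and -0.08, near Axin2 and Rnf43. Ccnd1, cyclin D1, differed by 0.75, Myc by 0.41, Lef1, a TCF family factor of T cells, by 0.41, and Sp5 by 0.32. T cells also express Myc and Lef1. Among 15 ligands, receptors and transducers of the pathway 10 were above 0 and the median was 0.06. Lrp5, a Wnt co-receptor, differed by 0.81, Lgr4, the R-spondin receptor most like Lgr5, by 0.77, Tcf7l2, the main TCF factor of the epithelium, by 0.56, and Gsk3b, a kinase of the destruction complex, by -0.22.

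Notch genes were brighter in the ligands and nearly equal in the receptors. Of 10 measured genes 7 were above 0, with a median of 0.24, and 0 reached 2-fold. The ligands Dll1, Dll4 and Jag1 differed by 0.72, 0.58 and 0.56. Hes1, the repressor that Notch induces, was at 7.14 in the impaired sample and 6.67 in the wildtype sample (difference 0.47), with a mean just below the floor. Nrarp, a feedback inhibitor that Notch also induces, named after its values were seen, was at 6.46 in the impaired sample and 6.48 in the wildtype sample (difference -0.02). Notch1, Notch2 and the effector Rbpj, named after their values were seen, differed by -0.10, 0.06 and -0.004. Rbpj was read from the brighter of 2 probe sets, and the mean of the 2 differed by -0.27. Signal also differed: in the impaired sample Notch1 was at 11.43 and Rbpj at 11.81. Dll1, Dll4 and Jag1 were at 7.39, 7.07 and 7.23 there. In the wildtype sample these ligands were at 6.67, 6.49 and 6.67, all below the floor. By mean signal Dll4 also lay below the floor, and Nrarp lay below it in both arrays.

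Other Eph receptors and the B ephrins, which are ligands of EphB receptors, were all above 0. The 8 measured Eph receptors and B ephrins had a median difference of 0.47, and 0 reached 2-fold. Efnb2, a B ephrin, was at 8.65 in the impaired sample and 7.66 in the wildtype sample (difference 0.99). Epha2, an A-class receptor, differed by 0.72, Ephb4 by 0.56 and Epha1 by 0.50. Genes of reserve and regenerating crypt cells showed no common direction. Of 5 measured genes 3 were above 0 and 2 below, with a median of 0.05. Anxa1, annexin A1, differed by 0.50, Clu, the marker of revival stem cells, by 0.06, Bmi1, a polycomb repressor, by -0.22 and Hopx, a homeodomain protein also expressed by T cells, by -0.34.

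Pan-epithelial genes, a list not limited to the crypt base, were brighter too, and had a higher median difference than the other members. All 14 pan-epithelial genes were above 0, with a median of 0.80 (1.74-fold) and 4 at 2-fold or more. Elf3, an epithelial transcription factor, differed by 1.40, Vil1, the microvillus protein villin, by 1.05, Krt18 by 1.04 and Krt19 by 1.02. The median level of the list was 10.28 in the impaired sample and 9.57 in the wildtype sample. All 8 members other than Olfm4 had differences below the pan-epithelial median, and 7 of the 8 lay below its lowest gene, Epcam, at 0.54. Those 8 were dimmer, with median levels of 7.54 in the impaired sample and 7.08 in the wildtype sample. By mean signal 3 of the 8 lay below the floor, against 0 of the 14. RMA compresses dim differences, and the part of signal strength in this gap was not tested. Olfm4 lay 1.22 above the pan-epithelial median. Enterocyte genes had a median of 0.98 over 13 genes and Paneth and goblet cell genes of 0.88 over 12, all above 0. Of these 3 lists 0 genes reached the difference of Olfm4. Since Olfm4 was chosen for its difference, nothing is read from that count or from its distance to a list median. Outside the lists, and named after their values were seen, the Paneth cell defensin Defa39 (2.15) and the gland mucin Muc6 (2.10) exceeded Olfm4. Defensins have near-identical paralogs, which leaves the signal of Defa39 uncertain. In RNA from a bulk sample, fewer cells of a type and less RNA per cell cannot be told apart, and the part of epithelial cells in the Olfm4 difference was not tested.

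Epithelial genes that cytokines induce were also brighter. All 8 were above 0, against 51.5% of all genes, with a median of 0.56 that lay below the pan-epithelial median of 0.80. Nos2, inducible nitric oxide synthase, differed by 1.21, Pigr, the transporter of IgA, by 1.14, Duoxa2 by 0.72 and the oxidase Duox2 by 0.63. Reg3b, Reg3g, Saa1 and Fut2, named after their values were seen, differed by 0.49, 0.355, 0.07 and 0.03. Saa1 lay below the floor in both arrays. The part of cytokines in these differences was not tested.

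**Figure D3:**
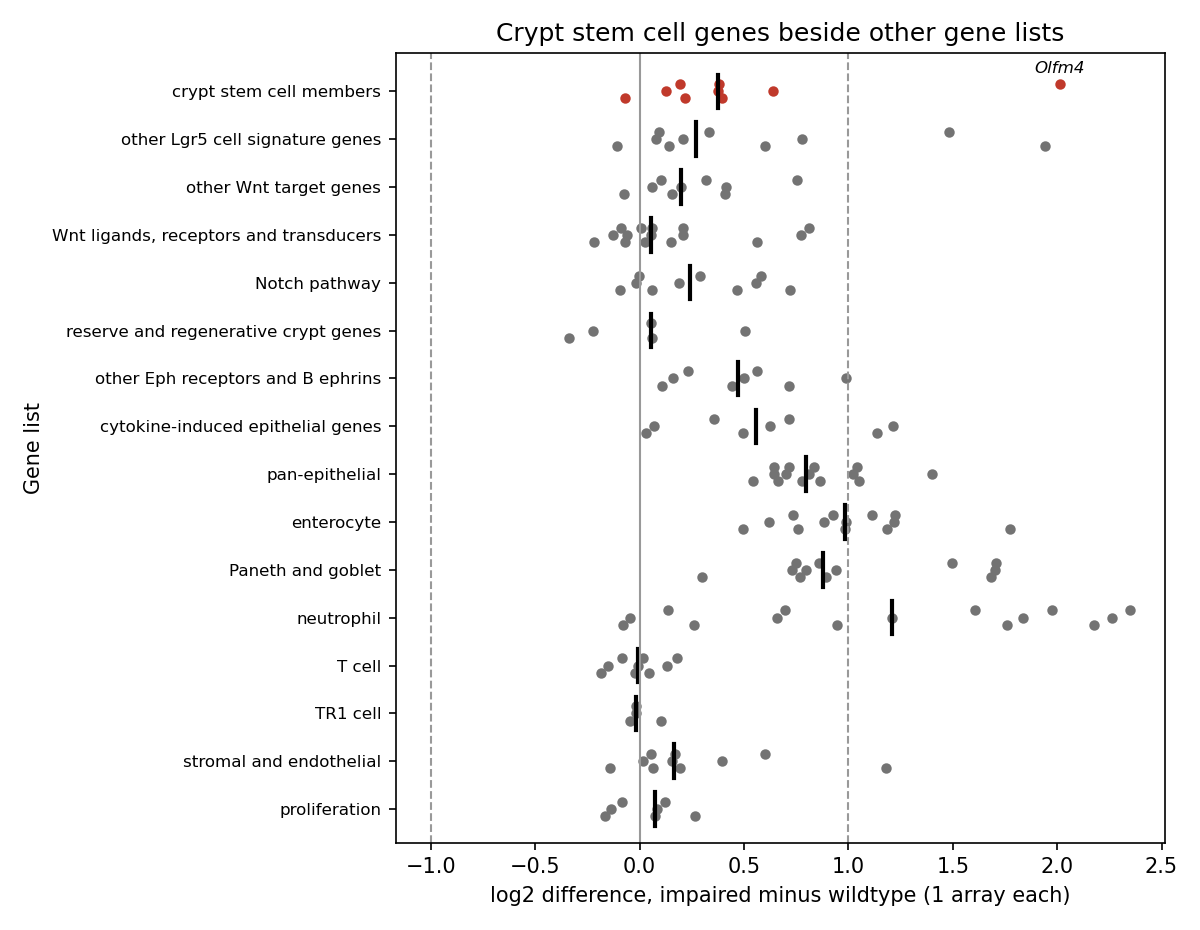
Differences (log2, impaired minus wildtype, horizontal axis) of single genes in 16 lists, the crypt stem cell genes in red and the others in grey, with a black bar at each list's median and dashed lines at 2-fold. Olfm4 lies at 2.01, beyond the listed epithelial genes, but was chosen for its difference. Defa39 and Muc6, which are in no list and are not drawn, were higher. Of the neutrophil genes 3 lie beyond Olfm4, and the other crypt stem cell genes lie left of the pan-epithelial median of 0.80.

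Among the lists, that of neutrophil genes held differences as large as that of Olfm4. Of 15 genes 13 were above 0 and 8 reached 2-fold, with a median of 1.21 (2.31-fold). The median level of the list was 8.08 in the impaired sample and 6.82 in the wildtype sample. Single genes ranged in level from 5.62 to 11.40 in the impaired sample and from 5.36 to 9.79 in the wildtype sample. Mmp8, neutrophil collagenase, differed by 2.35, S100a8 by 2.26, S100a9 by 2.18 and the granule protein Ngp by 1.97, and the first 3 exceeded Olfm4. The 2 genes below 0, Elane and Mpo, named after their values were seen, differed by -0.04 and -0.08 and lay below the floor in both arrays. The part of neutrophils in the Olfm4 difference was not tested.

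The T cell, TR1, proliferation and stromal lists had medians between -0.02 and 0.16. The T cell list had a median of -0.01 over 9 genes, with levels of at least 11.17 in the impaired sample and 11.32 in the wildtype sample. The TR1 genes Il10, Lag3, Itga2 and Maf differed by -0.02, -0.05, 0.10 and -0.02, and their levels were at least 9.90 in the impaired sample and 9.80 in the wildtype sample, above the floor in both. Il10ra, the receptor chain that the transgene impairs, differed by 2.38 on its single probe set. Whether that probe set also reads RNA of the transgene was not tested. Proliferation genes, which dividing T cells and crypt cells share, had a median of 0.07 over 7 genes and none reached 1.5-fold. Stromal and endothelial genes, which bear on Smoc2, had a median of 0.16 over 10 genes. Dcn, decorin of fibroblasts, differed by 1.18, Acta2, smooth muscle actin, by 0.60, Pecam1 by 0.40 and Cdh5 by 0.19. Lum, Col1a1, Col1a2, Col3a1, Pdgfra and Myh11, named after their values were seen, lay between -0.14 and 0.17. By mean signal 6 of the 10 lay below the floor, Dcn and Cdh5 among them.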

How the data were processed

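RNA from 2 samples, 1 array each, was measured. Per the submitters' processing notes, the authors made the deposited log2 values with affy and RMA; tool versions and the genome build were not given in the sources used here. Deposited were 34760 probe sets, with medians of 6.92 (impaired) and 6.89 (wildtype). By GEO's platform annotation 21640 had 1 symbol, 1321 had several and 11799 were not listed. Among the first, 21553 matched RefSeq (GRCm38.p6) by Entrez identifier, with 0 symbols changed. A gene with several probe sets was read from its brightest (mean of the arrays).

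The members and the 15 other lists were chosen with earlier results of these data known. Named genes were the members, up to 4 genes per list with the largest absolute difference, the TR1 genes, Il10ra and the 3 genes nearest Olfm4; others are marked. With 1 array per group there was no test; counts used a 2-fold rule on the deposited log2 scale. Where genes of a list had no probe set of 1 symbol they were not used. The number of arrays limits the precision. Alternatives were loess centring, an offset of 32, the mean of probe sets, a floor of 6.91 on the mean and a 1.5-fold rule. The 2-fold rule and the centring step were tested on simulated differences, and the subtraction of the arrays was not. Scripts ran under statsmodels 0.14.6, pandas 2.3.3 and numpy 2.4.6 (Python 3.11.15).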

Additional observations from a re-analysis of the deposited data

How the results depend on the processing

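No paired analysis was possible because each group holds 1 array, and for the same reason no replicate could be left out. Olfm4 was at 2.07 after loess centring and 1.95 with the offset, and remained the only member at 2-fold in both. The probe set and floor alternatives could not change a member's difference. Each member had a single probe set, and the floor only drops genes. The lead of Olfm4 over the median of the other members ran from 1.71 to 1.80, a gap that choosing Olfm4 for its difference favoured. Axin2 stayed below 0 (-0.11 to -0.06). The 1.5-fold rule, applied to the unadjusted differences, counted 2 members, with Smoc2 the second. After loess centring (0.584) and with the offset (0.527) Smoc2 fell short of 1.5-fold. Adding 32 to each linear value, which shrinks dim signals, gave 0.25 for Lgr5, 0.22 for Ascl2, 0.53 for Smoc2, 0.22 for the members' median, 0.37 for the Eph and ephrin list and 1.04 for the neutrophil list. The floor, which leaves fewer genes, put 5 of 6 members above 0 and gave medians of 0.60 for the other Lgr5 signature genes, 0.12 for Notch, 0.58 for Eph and ephrin, 1.83 for neutrophil, 0.28 for stromal and -0.28 for reserve and regenerative genes. Of the reserve and regenerative list only Bmi1 and Hopx remained under the floor. That list was also below 0 after loess centring (-0.000419). The T cell (0.0272) and TR1 (0.0230) medians turned above 0 after loess centring, and the cause was not tested. Of 110 alternative values, 4 changed sign, 13 others moved by 0.1 or more on the log2 scale (1.5 times for counts) and 93 did neither. Many of the 93 could not move. The mean of probe sets changes only genes with several, and the floor changes no gene's own difference. The count of 93 is therefore no measure of stability. Signal over background was not known, which limits Lgr5, Ascl2 and Ephb3 most.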

Other observations

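The genes next to Olfm4 in the order of differences, looked up after the values were seen, are known from several cell types. Mmp8, S100a8 and S100a9, all neutrophil genes, held ranks 4, 5 and 6 of 19937. Defa39, a Paneth cell defensin, was at 10.87 in the impaired sample and 8.72 in the wildtype sample (difference 2.15, rank 7). Muc6, a mucin of stomach and Brunner glands, was at 10.23 in the impaired sample and 8.13 in the wildtype sample (difference 2.10, rank 8). Olfm4 followed at rank 9, the neutrophil gene Ngp at rank 10, Tff2 at rank 11 and Gkn3 at rank 12. With 1 array per genotype the order of these ranks was not tested.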
